A study of Oryza sativa with 2 samples.

Results

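OS10G0569400, OS10G0569500 and OS10G0569600 are 3 neighbouring rice genes on chromosome 10, chosen by their identifiers out of 76131 rows in the deposited expression table. The choice was made with their higher values in Roc10 plants already known, so those values are a description and carry no test. Leaf RNA was compared between 1 library from PGD1:Roc10 plants, which carry Roc10 under the PGD1 promoter, described as a whole-body promoter, and 1 library from nontransgenic (NT) plants. Roc10 encodes a homeodomain-leucine zipper transcription factor. Both groups were cultivar Ilmi, 2 weeks old and grown under normal conditions. Seeds germinated at 28 °C for 4 days before the seedlings went into soil, 3 to a pot. The labels give neither the number of plants or transgenic lines behind a library nor any treatment or infection.

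RIR1a and RIR1b are small defence-related proteins of rice, known from leaves in which bacteria that do not cause disease in rice had triggered resistance. They belong to the same family as the WIR1 proteins of wheat, which accumulate after attack by powdery mildew. The proteins are short, rich in glycine and proline, and carry a hydrophobic start. They are thought to act at the cell surface or in the wall. Extra Rir1b expression in rice has been linked to greater resistance against the blast fungus. RIR1 transcripts are thus counted among the defence-related transcripts of rice leaves.

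The table describes OS10G0569400 as the RIR1a protein precursor and OS10G0569600 as similar to the RIR1b precursor. OS10G0569500, which lies between them, is described only as a conserved hypothetical protein, so for this gene the table gives no RIR1 name. On the IRGSP-1.0 genome the 3 loci run from 22575211 to 22576531, from 22578870 to 22579584 and from 22582332 to 22582812, a span of 7.60 kb. The gaps between them are 2.34 and 2.75 kb. The models of OS10G0569400 and OS10G0569500 rest on full-length cDNA clones, whereas OS10G0569600 was predicted from the genome sequence without a transcript. The table gives no exon structure, so the position of introns and untranslated regions was not analysed here.

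The PGD1:Roc10 library held 21866514 mapped read pairs and the NT library 27683296. The unit is FPKM, the fragments counted for a transcript divided by its length in kilobases and by the mapped fragments in units of 1000000. The number of fragments behind a single gene is unknown, so no interval on single values is given. With 1 library per group there is no spread between plants, and no difference below has a replicate check. No symbol or description carries the name Roc10, and its row was not looked up by identifier. The labels were therefore not checked by the transgene here. Genes of leaf photosynthesis together reached 54584 FPKM over 52 rows in PGD1:Roc10, against 57270 FPKM in NT, with 8 rows listed at 0 in each library. The patterns meant for root, pollen and seed genes took in rows of other kinds and give no check of those tissues. Of 15 measured rows found by the root pattern, for example, 10 are chromosome condensation proteins of the RCC1 class. In bulk leaf RNA, more cells with a transcript and more transcript per cell cannot be told apart.

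All 3 genes had the higher level in PGD1:Roc10 leaves, and RIR1a was by far the most abundant of them. RIR1a (OS10G0569400) stood at 212 FPKM in PGD1:Roc10, against 31.7 FPKM in NT, a ratio of 6.70. That level lay at percentile 97.6 of the measured rows in PGD1:Roc10 and at percentile 77.1 in NT, where measured means a mean of at least 1 FPKM over both libraries. The gene was thus plainly present in NT leaves too. On the log2(FPKM + 1) scale, used for every difference below, its level was 2.71 higher in PGD1:Roc10. The authors' deposited table called it significant, with q = 0.0111, the lowest q in that table, which 111 rows shared.

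The RIR1b-like OS10G0569600 gave 12.2 FPKM in PGD1:Roc10, against a listed 0 in NT. The authors' deposited table gives this gene the status OK. A listed 0 need not mean that the transcript was absent, and no fold can be formed from it. Its difference of 3.72 depends on the added constant and was 1.78 with 5 FPKM added in place of 1 and 6.94 with 0.1. The authors' deposited table gives p = 0.0004 and q = 0.0621 for this gene, without a call.

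OS10G0569500, the gene between them, had 5.80 FPKM in PGD1:Roc10, against 0.627 FPKM in NT, a ratio of 9.25. Its level lay at percentile 1.02 of the measured rows in NT and at percentile 32.4 in PGD1:Roc10. A row below 1 FPKM in NT counts as measured only through PGD1:Roc10, so nothing is read from the percentile in NT. The difference was 2.06, and with 5 FPKM added it was 0.94, below 2-fold. In the authors' deposited table it has p = 0.0195 and q = 0.947, without a call. Its ratio exceeded that of RIR1a, at a far lower level in both libraries.

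All 3 genes were at least 2-fold higher, where 502 of 21875 measured rows, or 2.29%, were 2-fold higher and 282, or 1.29%, were 2-fold lower. Of the 3 genes, 1 is called in the authors' deposited table, where 0.474% of the 24683 rows tested were called higher and 0.105% lower. These genes were chosen for this contrast, so nothing is read from either count. All 3 passed the floor of 1 FPKM, but OS10G0569500 and OS10G0569600 did so only through PGD1:Roc10. By size of the difference, OS10G0569600 ranked 63, OS10G0569400 104 and OS10G0569500 174 among the measured rows. The median difference of all measured rows was -0.01. Scaling both libraries to the same total FPKM moved that median to -0.20 and the split of 2-fold rows to 394 higher and 382 lower, or 50.8% higher in place of 64.0%. Under that scaling RIR1a was still 2.49 higher in PGD1:Roc10. Scaled to the same upper quartile instead, 2.29% of measured rows were 2-fold higher and 1.30% 2-fold lower. Short RNA rows held 31.0% of the summed FPKM of the PGD1:Roc10 library and 18.1% of that of NT, and their part in the differences was not tested.

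**Figure D1:**
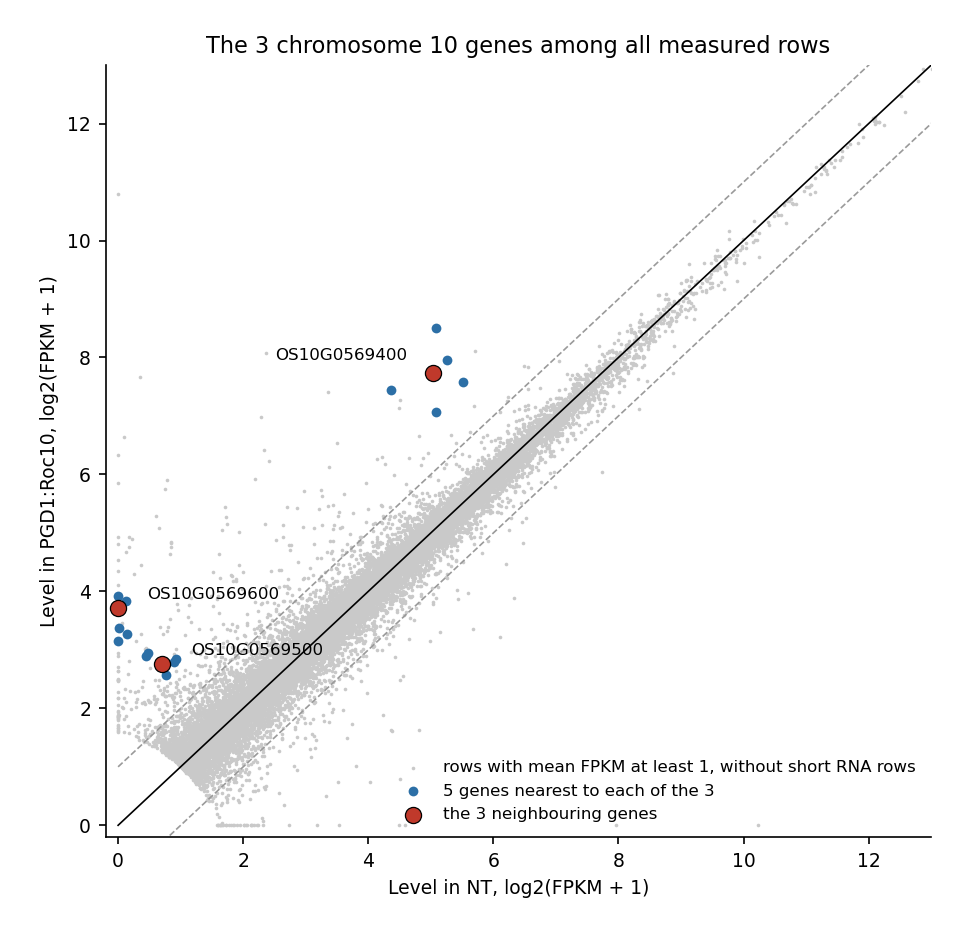
Level of every measured row without short RNAs in PGD1:Roc10 (vertical axis) against NT (horizontal axis), both as log2(FPKM + 1), with the line of equal levels and dashed lines at 2-fold. The 3 chromosome 10 genes (red) lie above the upper dashed line, RIR1a at 212 against 31.7 FPKM and the other two near the left edge, and blue points are the 5 described genes closest to each.

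The table holds 4 rows that name RIR1 and none that names WIR1. All 4 lie on chromosome 10, within the same 33.5 kb, from 22575211 to 22608671. The other two are OS10G0569800, from 22587846 to 22592131, and OS10G0570200, from 22607641 to 22608671, both described as RIR1b-like. OS10G0570200 had 7.31 FPKM in PGD1:Roc10, against 2.54 FPKM in NT, a ratio of 2.87 and a difference of 1.23. It has no call in the authors' deposited table. OS10G0569800 was barely detected, with 0.499 FPKM in PGD1:Roc10, against 0.139 FPKM in NT, and the authors' deposited table marks it as not tested. Every RIR1 row thus had the higher value in PGD1:Roc10, and 3 of the 4 were at least 2-fold higher, where 0.767% of all 76131 rows were. 2 of these 3 rows were among the genes chosen for this contrast. The share of all rows with merely the higher value was not counted, so nothing is read from either count.

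In PGD1:Roc10 the order of the RIR1 levels was OS10G0569400, OS10G0569600, OS10G0570200 and OS10G0569800. In NT it was OS10G0569400, OS10G0570200 and OS10G0569800, with OS10G0569600 listed at 0. Whether neighbours in these orders differ cannot be told without replicates. RIR1a made up 91.4% of the summed RIR1 level in PGD1:Roc10, which was 232 FPKM, and 92.2% in NT, which was 34.4 FPKM. The sum was 6.76 times higher in PGD1:Roc10, so it followed RIR1a. In PGD1:Roc10 the level of RIR1a was 17.4 times that of OS10G0569600 and 36.6 times that of OS10G0569500. OS10G0569600 and OS10G0569800 rest on the same protein record, and reads of related copies may have been divided between rows. How the counting treated reads with several matches is not given in the sources used here, so the split between the RIR1b-like rows is uncertain.

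**Figure D2:**
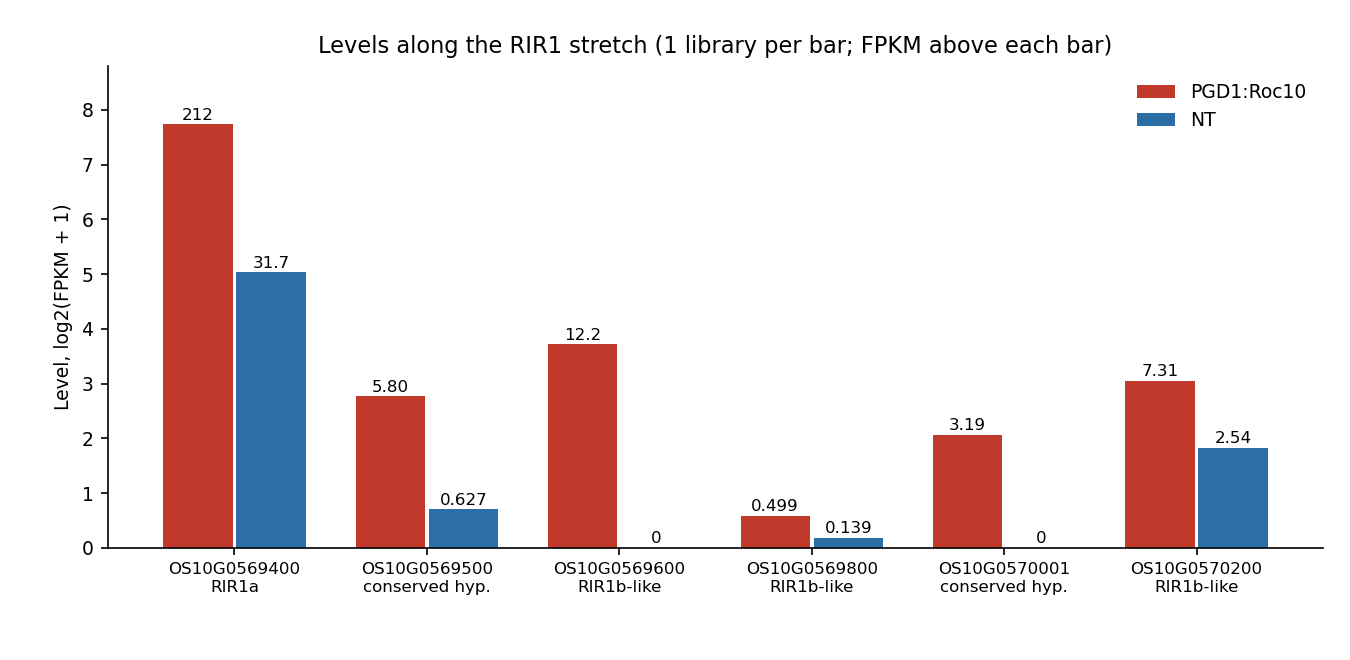
Level of 6 genes in their order along chromosome 10, as log2(FPKM + 1) on the vertical axis, with PGD1:Roc10 (red) left of NT (blue), 1 library per bar and the FPKM value above it. Each gene is higher in PGD1:Roc10, OS10G0569600 and OS10G0570001 are listed at 0 in NT, and OS10G0569400 exceeds all others in both libraries.

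Along the stretch between the outermost RIR1 rows, each gene with a value had the higher one in PGD1:Roc10. The nearest measured genes on both sides of the stretch did not differ 2-fold. Between the start of OS10G0569400 and the end of OS10G0570200 the table lists 7 rows other than short RNAs. Of these, 6 had the higher value in PGD1:Roc10 and the non-coding OS10G0569450 was listed at 0 in both libraries. The sixth gene is OS10G0570001, a conserved hypothetical protein predicted from the genome sequence, with 3.19 FPKM in PGD1:Roc10, against a listed 0 in NT. It has no call in the authors' deposited table. Of the 6 genes, 3 were chosen for this contrast and OS10G0569800 lay below the floor, so nothing is read from their count. A short RNA row that shares the locus of OS10G0569400 was listed at 0 in both libraries.

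The nearest measured gene before RIR1a is OS10G0569300, a putative methyltransferase 1.95 kb away, with 9.48 FPKM in PGD1:Roc10, against 8.99 FPKM in NT. Next in order are OS10G0569200, a beta-propeller protein at 61.1 FPKM in PGD1:Roc10, against 59.4 FPKM in NT, and OS10G0569000, at 102 FPKM in PGD1:Roc10, against 99.7 FPKM in NT. These 3 genes differed by less than 0.1 on the log2 scale. The hydrolase-like OS10G0568900 had 17.8 FPKM in PGD1:Roc10, against 20.5 FPKM in NT. OS10G0568300 and OS10G0568200, which share a locus, were near 1 FPKM in both libraries. None of these 6 rows was 2-fold higher or lower. On the far side the first measured gene past OS10G0570200 is OS10G0571100, with 5.23 FPKM in PGD1:Roc10, against 4.35 FPKM in NT. The pyruvate kinase-like OS10G0571200 had 72.3 FPKM in PGD1:Roc10, against 60.7 FPKM in NT. OS10G0571600, of the NAM class of transcription factors, gave 1.88 FPKM in PGD1:Roc10, against 0.880 FPKM in NT, a difference of 0.61. OS10G0572000, a GTP-binding protein, gave 2.84 FPKM in PGD1:Roc10, against 3.53 FPKM in NT. These 4 rows past the stretch did not reach a 2-fold difference on the log2(FPKM + 1) scale either.

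Within 100 kb of the 3 genes there were 21 other measured rows, of which 3 (14.3%, beside 2.29% of all measured rows) were 2-fold higher and none was 2-fold lower. These were OS10G0570001, OS10G0570200 and OS10G0567900, of which OS10G0570001 and OS10G0567900 lay below 1 FPKM in NT and passed the floor only through PGD1:Roc10. OS10G0567900, named here after its values were seen, is similar to an F-box protein and lies 57.2 kb before RIR1a. It gave 12.8 FPKM in PGD1:Roc10, against 0.916 FPKM in NT, and the authors' deposited table called it significant with q = 0.0111. The other 18 rows had differences between -0.44 and 0.61, with a median of -0.0017. OS10G0567900 is separated from the RIR1 stretch by 7 measured rows that were not 2-fold higher.

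**Figure D3:**
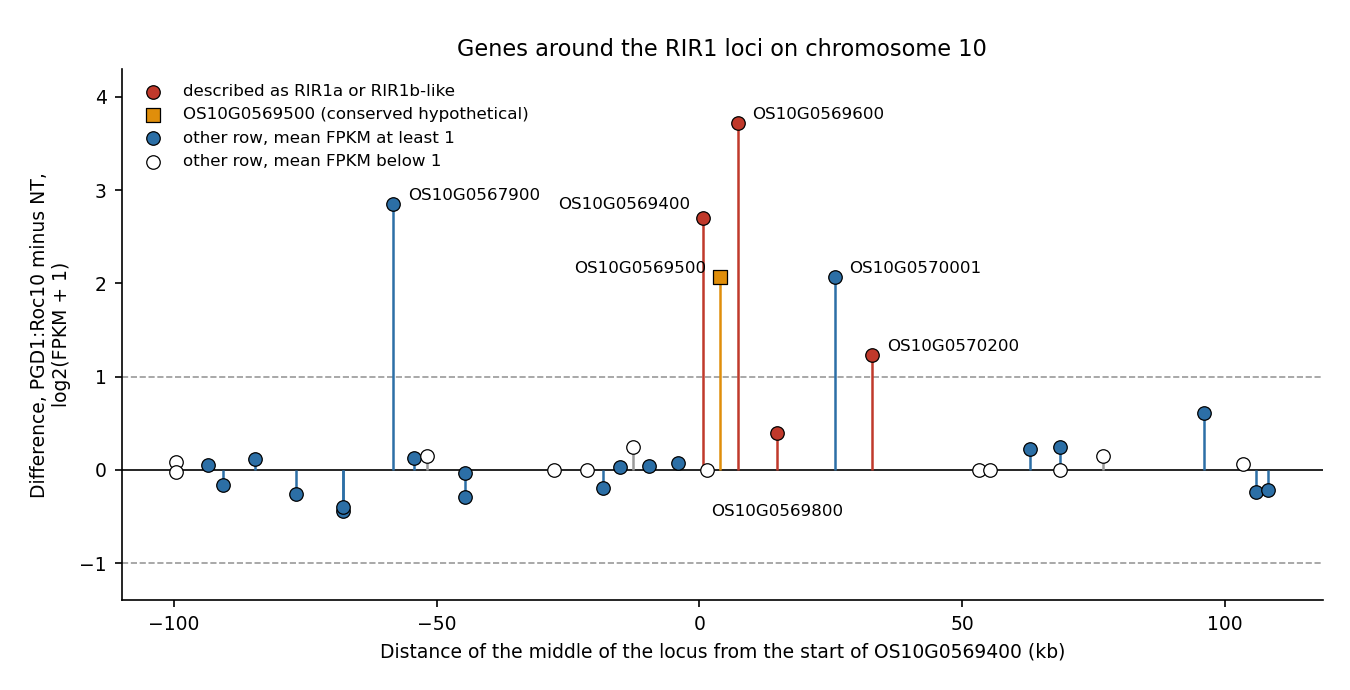
Difference in log2(FPKM + 1), PGD1:Roc10 minus NT, for every row other than short RNAs within 100 kb, against the distance from the start of OS10G0569400 in kb, with dashed lines at 2-fold. The tall lines group at the RIR1 stretch, apart from OS10G0567900 about 57 kb before it, and the remaining measured rows lie between -0.44 and 0.61.

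Neighbouring genes that differed together were counted, without an expected number to set beside the count. Counting runs of at least 3 adjacent measured loci that were each 2-fold higher, 5 were found, and 1 run was 2-fold lower throughout. One of them was the RIR1 stretch, with 5 loci in 33.5 kb: OS10G0569400, OS10G0569500, OS10G0569600, OS10G0570001 and OS10G0570200. Of these loci 3 were chosen for their difference, and OS10G0569500, OS10G0569600 and OS10G0570001 passed the floor only through PGD1:Roc10, so nothing is read from the length of this run. A run on chromosome 11, from 6668506 to 6884768, also held 5 loci, over 216 kb. It includes OS11G0229300, similar to a receptor protein of the NBS-LRR class of disease resistance genes. The run of lower loci was the chitinase and lectin stretch around CHT5 on chromosome 4. With 5 FPKM added, with a floor of 5 FPKM or with no floor, the RIR1 loci formed no such run. At a 4-fold threshold 4 of the 5 loci remained in it.

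The genes closest to each of the 3 in level were looked up among 19517 described coding rows, by the distance between the pairs of log2(FPKM + 1) values over the 2 libraries. With only 2 libraries this says that the levels were alike and nothing on shared control. For RIR1a the closest gene was WRKY45 (OS05G0322900), at a distance of 0.33, with 249 FPKM in PGD1:Roc10, against 37.5 FPKM in NT. WRKY45 is a transcription factor of the salicylic acid branch of rice defence. Next came the RING-type zinc finger gene OS06G0125800, with 190 FPKM in PGD1:Roc10, against 44.5 FPKM in NT, and the amino acid transporter gene OS08G0127100, with 133 FPKM in PGD1:Roc10, against 32.7 FPKM in NT. The helix-loop-helix gene OS01G0108400, at 172 FPKM in PGD1:Roc10, against 19.6 FPKM in NT, and OS04G0592600, at 362 FPKM in PGD1:Roc10, against 33.0 FPKM in NT, completed the 5.

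For OS10G0569500 the closest genes had low levels, as a search by level requires. The protein kinase gene OS02G0633066 gave 5.93 FPKM in PGD1:Roc10, against 0.849 FPKM in NT. The NBS-LRR-like OS11G0229300 gave 4.94 FPKM in PGD1:Roc10, against 0.694 FPKM in NT. OS12G0174700, similar to disease resistance response protein 206, gave 6.15 FPKM in PGD1:Roc10, against 0.900 FPKM in NT. These 3 genes were picked for levels near those of OS10G0569500, so nothing is read from their likeness in level. The other two were the tetraspanin gene OS03G0853200 and the kinase gene OS08G0176200. For OS10G0569600 the closest were OS10G0537800 and OS10G0538200, a pair of aspartic peptidase genes on the same chromosome. OS10G0537800 gave 13.2 FPKM in PGD1:Roc10, against 0.0904 FPKM in NT, and OS10G0538200 gave 14.1 FPKM in PGD1:Roc10, against a listed 0 in NT. OS03G0429900, the WRKY 17-like OS03G0335200 and OS03G0812800, similar to a calcium-binding allergen, followed at distances of 0.35, 0.47 and 0.57.

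RIR1 genes were set beside other defence groups, found by patterns in the table's own descriptions. The salicylate list took genes described by NPR1, TGA or salicylate, together with WRKY45, WRKY62 and WRKY76. Those 3 WRKY genes were put on it with their differences known, so the list is no independent support. Of its 6 rows 5 were measured, and 4 of these were at least 2-fold higher and none lower. Of those 4 genes 3 were WRKY45, WRKY62 and WRKY76, and WRKY62 passed the floor only through PGD1:Roc10. Over all measured rows 2.29% were higher and 1.29% lower. The median difference was 2.70, beside -0.01 over all measured rows. It is the value of WRKY45 itself, so nothing is read from it. WRKY62 (OS09G0417800) gave 33.1 FPKM in PGD1:Roc10, against 0.566 FPKM in NT, and WRKY76 (OS09G0417600) gave 91.9 FPKM in PGD1:Roc10, against 10.3 FPKM in NT. Both are known as factors that can repress defence genes in rice. The NPR1-like OS01G0194300, a co-regulator of the salicylic acid response, gave 11.7 FPKM in PGD1:Roc10, against 4.78 FPKM in NT. The authors' deposited table called WRKY45 and WRKY76 significant and gave no call for WRKY62 or OS01G0194300. A TGA6-like gene, OS01G0279900, of the factors that NPR1 proteins bind, gave 19.7 FPKM in PGD1:Roc10, against 18.4 FPKM in NT. OS01G0194300 and OS01G0279900 were named after their values were seen. They are the only measured rows that the descriptions alone found, with differences of 1.14 and 0.095.

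Pathogenesis-related (PR) proteins, the classical products of an induced defence, went both ways. Of 140 rows 68 were measured, and 5 of these (7.35%) were at least 2-fold higher and 7 (10.3%) at least 2-fold lower. Beside these counts the shares over all measured rows were 2.29% higher and 1.29% lower. The median difference was -0.15. Among the 5 higher rows, OS07G0129300 and OS04G0465600 passed the floor only through PGD1:Roc10. Among the 7 lower rows, OS12G0257400 and OS12G0630200 passed it only through NT. The pattern also took in 15 rows for ERF transcription factors, which are not PR proteins. None of these differed 2-fold on the log2(FPKM + 1) scale. Without them, a choice made after seeing the data, 5 of 53 rows (9.43%) were higher and 7 (13.2%) lower. The PR1a-like OS07G0129300 gave 5.98 FPKM in PGD1:Roc10, against 0.129 FPKM in NT. The chitinase-like OS01G0687400, of the enzymes that cut fungal cell walls, gave 42.6 FPKM in PGD1:Roc10, against 5.46 FPKM in NT. The thaumatin family gene OS12G0630200 went the other way, with 0.666 FPKM in PGD1:Roc10, against 10.5 FPKM in NT. The most abundant member in both libraries, the class III chitinase-like OS05G0247100, was lower too, with 212 FPKM in PGD1:Roc10, against 468 FPKM in NT. The authors' deposited table called 2 of the 68 higher and 3 lower, and gave no call for OS07G0129300 or OS12G0630200.

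A further list held genes for wall proteins that are likewise rich in glycine or proline. It also took in pollen allergen and extensin domain rows. Of its 79 rows 37 were measured, and 15 had the higher value in PGD1:Roc10. On the log2(FPKM + 1) scale none was 2-fold higher or lower, though some low rows passed a plain ratio of 2. In a list of this size, finding none is near the shares of 2.29% and 1.29% over all measured rows. The median difference of the 37 was -0.08. The most abundant, the glycine-rich OS03G0670700, gave 1817 FPKM in PGD1:Roc10, against 2261 FPKM in NT. The largest differences were those of OS06G0317100, at 0.944 FPKM in PGD1:Roc10, against 2.80 FPKM in NT, and of its neighbour OS06G0317200, at 18.6 FPKM in PGD1:Roc10, against 32.3 FPKM in NT. The extensin-like OS03G0795300 gave 2.06 FPKM in PGD1:Roc10, against 0.865 FPKM in NT.

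Small antimicrobial peptides were mostly too low to compare. Of 24 rows matching thionin, defensin or gibberellin-regulated peptide names 5 were measured, and none was 2-fold higher or lower. With shares of 2.29% and 1.29% over all measured rows, nothing is read from 5 rows. The gibberellin-regulated OS05G0432200 gave 17.1 FPKM in PGD1:Roc10, against 11.02 FPKM in NT. OS03G0607200, of the same family, gave 1.495 FPKM in PGD1:Roc10, against 0.757 FPKM in NT. The thionin-like OS07G0432201 gave 1.25 FPKM in PGD1:Roc10, against 1.48 FPKM in NT. The most abundant row, OS09G0485900, at 237 FPKM in PGD1:Roc10, against 238 FPKM in NT, is a ribosomal protein gene that the pattern took in by its second name, as it did OS02G0103700.

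**Figure D4:**
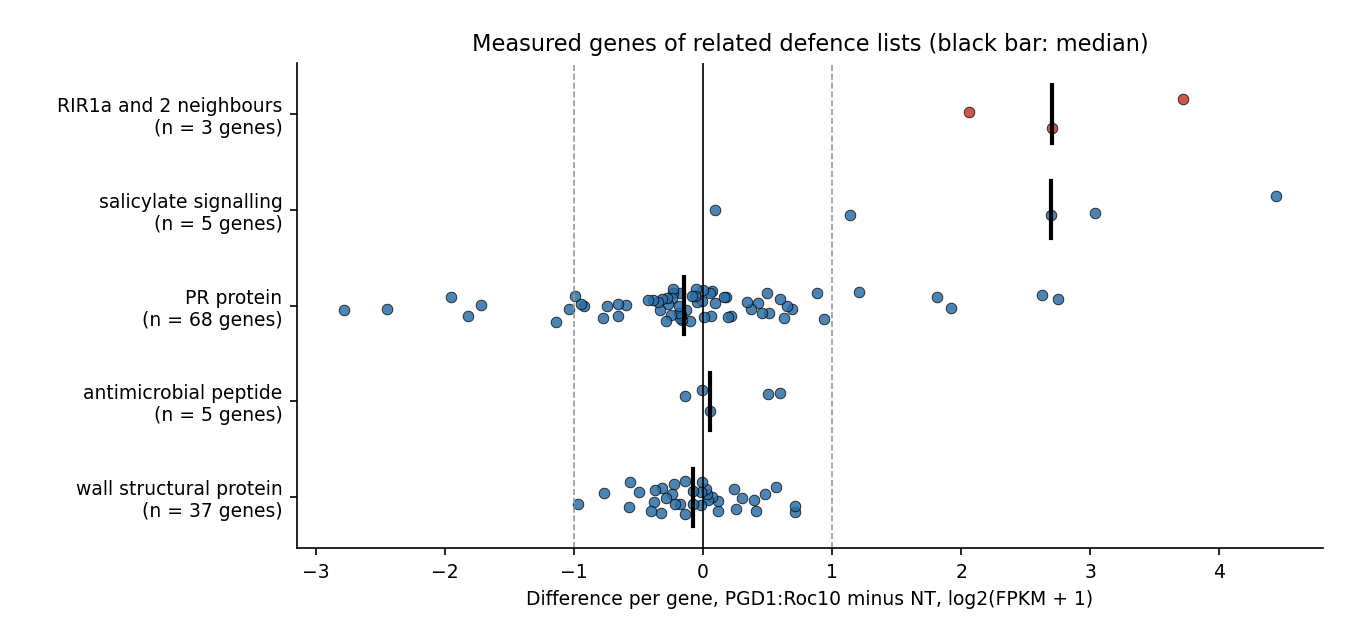
Difference in log2(FPKM + 1), PGD1:Roc10 minus NT, on the horizontal axis, 1 point per measured gene, for OS10G0569400 and its 2 neighbours (top) and for 4 related lists, with the median of each as a black bar and dashed lines at 2-fold. The 3 genes and 4 of 5 salicylate genes lie beyond the upper dashed line, PR proteins spread to both sides, and the wall and antimicrobial genes stay within the dashed lines. Of those 4 salicylate genes, 3 are WRKY genes put on the list with their differences known.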

How the data were processed

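Per the labels' protocols, leaf RNA of 1 PGD1:Roc10 and 1 NT library was sequenced with a kit that keeps the strand. Reads were trimmed, aligned with TopHat 2.0.12 and quantified with Cufflinks and Cuffdiff 2.2.1 on IRGSP-1.0 with Ensembl Plants release 23 models, per the file headers. Trimming left 45354852 reads for PGD1:Roc10 and 56985672 for NT in the authors' summary sheet. For the strand setting and library normalization nothing is given in the sources used here. FPKM, the p-value and q-value columns and a log2 column for significant genes were deposited by the authors and copied, never recomputed. Related copies may share reads, which can move single FPKM values between rows.

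The members and lists were chosen with earlier results of these data known. No test was made, since each group has 1 library. Differences are log2(FPKM + 1), and rows with a mean of at least 1 FPKM count as measured. Fold counts use 2-fold on that scale, which understates low genes. In 2739 rows of low value the most frequent log2 ratio was 0.325, so equal numbers of fragments gave about 1.25 times more FPKM in PGD1:Roc10. Fragments per gene could not be recovered for the genes described.

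Named were the 3 genes, all RIR1 rows, up to 6 measured neighbours on each side within 100 kb, the 5 closest described genes each, and the 3 largest differences and the most abundant member of each list. List patterns read symbols and descriptions, and 1771 rows with a symbol alone could be matched by symbol only. Alternatives were pseudocounts of 0.1 and 5, scalings to the same total and upper quartile, floors of 0 and 5 FPKM, thresholds of 1.5-fold and 4-fold, coding rows alone, and windows of 50 and 200 kb. Coding rows were those listed by an OS identifier and not described as non-coding, so genes listed by a symbol were left out of them. In the deposited locus column length equals end minus start plus 1. Python 3.11.15, NumPy 2.4.6, pandas 2.3.3 and matplotlib 3.10.9 were used, and the counting was tested on simulated data. No sequence is printed, and the supplied RefSeq gene table of another assembly was not used.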

Additional observations from a re-analysis of the deposited data

How the results depend on the processing

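No paired analysis was possible because each group has 1 library, and no replicate could be left out. The direction of the 3 genes could not change with the pseudocount, since the same constant was added to both libraries. Both scalings were small beside these differences, so nothing is read from the direction. With a pseudocount of 0.1 the differences were 2.74 (OS10G0569400), 3.02 (OS10G0569500) and 6.94 (OS10G0569600). With a pseudocount of 5 they were 2.57, 0.94 and 1.78 in the same order. Scaled to the same total they were 2.49, 1.88 and 3.53, and to the same upper quartile 2.70, 2.06 and 3.71. The share of measured rows 2-fold higher, 2.29% as reported, was 0.978% with a pseudocount of 5, 0.767% without a floor, 0.832% at 4-fold and 5.13% at 1.5-fold. The share lower, 1.29% as reported, was 2.21% and 0.457% with pseudocounts of 0.1 and 5, 0.427% without a floor, 0.402% at 4-fold and 3.91% at 1.5-fold. PR proteins higher, 5 as reported, numbered 3 with a pseudocount of 5 or a floor of 5 FPKM, 2 at 4-fold and 11 at 1.5-fold. Those lower, 7 as reported, numbered 12 with a pseudocount of 0.1, 2 at 4-fold and 15 at 1.5-fold. Adding chitinase and glucanase rows known by symbol alone, chosen after seeing the data, gave 6 higher and 8 lower, and leaving out ERF factor rows changed neither count. Of the neighbours within 100 kb, 1 in place of 3 was higher with a pseudocount of 5 or a floor of 5 FPKM. The remaining alternatives were chosen after seeing the data. Runs of higher loci, 5 as reported, numbered 8 and 1 with pseudocounts of 0.1 and 5, 0 without a floor, 3 with a floor of 5 FPKM, 2 at 4-fold and 16 at 1.5-fold. Runs of lower loci, 1 as reported, numbered 0 without a floor or with coding rows alone and 5 at 1.5-fold. The coding rows leave out genes listed by a symbol, among them CHT5 of the lower run, so its loss there does not point to a non-coding row. Without a floor, rows listed at 0 in both libraries count as loci and interrupt runs. Wall protein genes higher, 0 as reported, numbered 2 with a pseudocount of 0.1 and 2 at 1.5-fold. Those lower, 0 as reported, numbered 1 with a pseudocount of 0.1 or the same total and 2 at 1.5-fold. Antimicrobial genes higher, 0 as reported, numbered 1 at 1.5-fold. The cause of these shifts was not tested beyond the construction of each alternative. Of 142 comparisons with an alternative, 97 stayed close to the reported value, where close meant equal or within 1.5-fold for counts and shares. Counts of 0 that stayed at 0 are among the 97, so nothing is read from this total. The differences of the 3 genes were held to a stricter limit, and all of theirs count as moved. The number of fragments behind low values such as those of OS10G0569800 is unknown.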
